A study of Mus musculus with 9 samples.

Results

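The baseline of the study was the melanoma-bearing omentum of mice that had received phosphate-buffered saline (PBS) in place of a cell treatment. It was described here from 3 of the 9 libraries of the series, chosen by their PBS label, and each came from a separate mouse. All 3 mice were C57BL/6, were 7 to 10 weeks old, and had been injected into the peritoneal cavity with 500000 B16-OVA cells on day 0. They received PBS on day 6, and the omentum was taken 18 h later for poly(A) RNA sequencing. B16-OVA is an established mouse melanoma cell line that carries chicken ovalbumin as a model antigen, so every sample was a mixture of injected tumour cells and host tissue. The omental libraries of the remaining mice were not used, and no comparison with a treatment was made.

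The omentum is a fold of fatty peritoneum covered by mesothelium and dotted with milky spots, which are clusters of lymphocytes and macrophages around small vessels that sample the peritoneal fluid. Stromal cells of milky spots produce CXCL13, a chemokine that draws B cells, and innate-like B-1 cells and large peritoneal macrophages are well known from this site. Melanoma cells make pigment in melanosomes, with tyrosinase and its relatives as enzymes and PMEL as the fibre on which melanin is laid down.

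The 3 libraries held 34369342 (PBS 1), 25993996 (PBS 2) and 44626843 (PBS 3) counts. Of the 55359 entries of the gene table, 13728 had a mean of at least 1 CPM (counts per 1e+06 counts, scaled by the TMM method) and are called measured genes below. Across the measured genes the log2 CPM of a pair of libraries correlated with Pearson's r between 0.973 and 0.981, which is a description across genes within these samples. Each pair differed by more than counting noise, with a chi-square per degree of freedom between 52.0 and 101. With 1 group of 3 mice there was no test, and each value below is a measurement of these mice. In bulk tissue, fewer cells of a type and less RNA per cell cannot be told apart.

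PBS 2 stood apart from the others in how its levels followed gene length. In the shortest of 20 bins of exon length the median gene was 0.34 above the mean of the 3 libraries in log2 CPM in PBS 2, and in the longest bin it was 0.24 below. PBS 1 and PBS 3 ran the other way, from -0.12 and -0.21 in the shortest bin to 0.12 and 0.12 in the longest. All 82 measured ribosomal protein genes, which are short, were highest in PBS 2, against 37.5% of all measured genes, and together they made up 31247, 48528 and 28986 CPM in PBS 1, PBS 2 and PBS 3. The part of gene length in the differences between the libraries was not tested. Values centred within the length bins are given below beside some, not all, of the lists in which PBS 2 was lowest or highest.

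**Figure D1:**
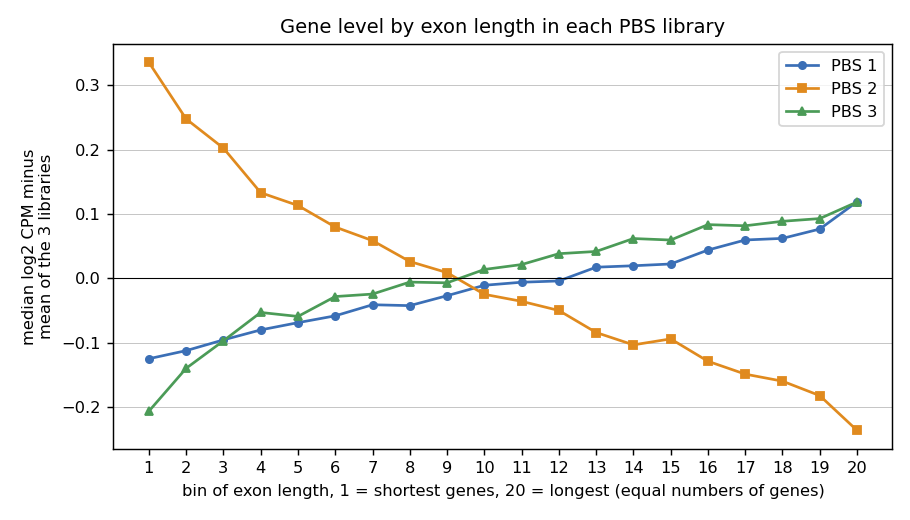
Median log2 CPM of each PBS library minus the mean of the 3 libraries (vertical axis) in 20 bins of exon length with about equal numbers of measured genes (horizontal axis). PBS 2 falls from 0.34 in the bin of the shortest genes to -0.24 in that of the longest, while PBS 1 and PBS 3 rise.

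Pigment-cell transcripts led the libraries. Tyrp1, an enzyme of the tyrosinase family that works in melanin synthesis, had the highest mean CPM of any gene with a symbol, at 9020, 7588 and 8216 CPM in PBS 1, PBS 2 and PBS 3 (8275 ± 718, SD, n = 3). Dct, which encodes dopachrome tautomerase of the same pathway, followed at 8437, 8403 and 7652 CPM. Pmel, the melanosome fibre protein, stood at 8076, 7979 and 8269 CPM. All 3 genes lay within 1.19-fold between the libraries, and Dct led in PBS 2 and Pmel in PBS 3.

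The 25 genes with the highest mean CPM together took 9.09% ± 0.388 (SD, n = 3) of the counts. Beside pigment genes they comprised mitochondrial genes (mt-Co1, mt-Cytb, mt-Nd1, mt-Nd5, mt-Nd2), translation factors (Eef1a1, Eef2), ferritin chains (Fth1, Ftl1), enzymes of glycolysis (Aldoa, Pkm, Gapdh) and chaperones (Hsp90ab1, Hsp90b1). Gpnmb, a glycoprotein of melanosomes and lysosomes, had 3224, 3274 and 3574 CPM. Vim, Atp5b, Ctnnb1, Psap, Cck and B2m were also among them. The 10 genes with the most counts held 5.50% to 6.24% of a library, and the top 1000 held 47.7% to 50.5%.

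Within those 25 genes the libraries differed most for Cck and mt-Nd5. Cck, which encodes the peptide hormone cholecystokinin, was at 1950, 3051 and 1667 CPM, highest in PBS 2. The gene of a mitochondrial complex I subunit, mt-Nd5, was at 3440, 1924 and 2264 CPM, highest in PBS 1. B2m, the light chain of MHC class I, was at 1236, 2160 and 2125 CPM, so PBS 1 was low. In TPM, which sets each library to the same total after division by exon length, B2m was at 4783, 7226 and 8278. How close PBS 2 and PBS 3 lay thus depended on how the libraries were scaled. Cck and B2m are short genes, which as a group ran high in PBS 2, and their values were not centred by exon length.

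**Figure D2:**
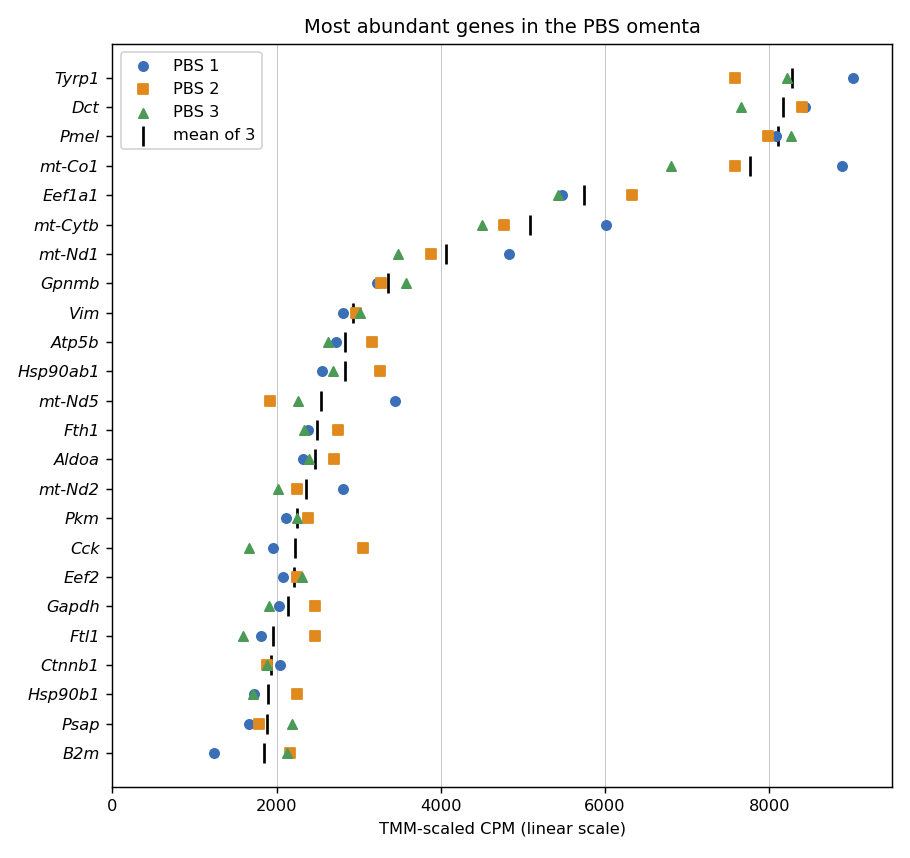
TMM-scaled CPM (horizontal axis, linear) of 24 of the 25 genes with the highest mean in each of the 3 PBS libraries (coloured points), with the mean as a black line. Tyrp1, Dct and Pmel lead with means of 8275, 8164 and 8108 CPM, and most genes show little distance between the libraries.

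Levels of different genes were compared per exon length, as TPM, which divides counts by exon length and scales each library to the same total. On this scale mt-Co1 was highest at 16009 ± 2740 TPM, followed by mt-Cytb at 14212 ± 2886 and mt-Nd1 at 13552 ± 2834 (SD, n = 3). Bc1, a short non-coding RNA, came next, and a length-scaled level of so short a gene is uncertain. Pmel at 11276 ± 1107 TPM and Tyrp1 at 9356 ± 1483 TPM were the leading nuclear protein-coding genes, and Pmel was above Tyrp1 in each of the 3 libraries. Eef1a1 had 7303 ± 9.62 TPM, B2m 6762 ± 1793 TPM and Cck 5326 ± 1260 TPM. Mlana, the melanocyte antigen also called MART-1, had 4920 ± 669 TPM, while Tyr, the rate-limiting enzyme of melanin synthesis, had 493 ± 78.8 TPM.

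All 16 genes of the melanosome list were measured, and their summed level was nearly the same in the 3 mice, at 37921, 37205 and 36037 CPM. That was 3.87%, 3.61% and 3.64% of the counts. None of the 16 differed 2-fold between the highest and the lowest library, against 10.2% of all measured genes, and their median log2 range was 0.22 against 0.38. Mlana and Mlph, which encodes a linker that carries melanosomes along actin, had the widest ranges of the list, with a log2 range of 0.60 each. Mlana was highest in PBS 2 (1508, 2079 and 1374 CPM) and Mlph was lowest there (802, 578 and 876 CPM). Mlana is a short gene, and in the shortest bin of exon length the median gene was 0.34 above the mean in PBS 2. The values of Mlana and Mlph were not centred by exon length.

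Regulators of the pigment lineage ranged about as widely as genes in general, with a median log2 range of 0.41 against 0.38. Sox10 was at 534, 521 and 521 CPM, and Mitf, the central regulator of melanocyte genes, was at 562, 703 and 510 CPM. Pax3, which acts upstream of Mitf, had 163, 150 and 152 CPM, and Mc1r, the receptor for melanocyte-stimulating hormone, had 184, 183 and 168 CPM. Centred by exon length 3 of the 15 measured genes of this list had a 2-fold range. As scaled by TMM 2 (13.3%) did, against 10.2% of all measured genes. They were Ednrb, an endothelin receptor of pigment cells, at 25.3, 10.0 and 19.3 CPM, and Lef1, a WNT pathway factor that T cells also express, at 2.05, 3.41 and 4.46 CPM.

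Many melanosome genes carry the letters CATGTG near their start, a form of the E-box that MITF and related factors bind. The letters were searched on both strands in windows from 250 bases before to 50 bases after the gene start, from RefSeq on build GRCm38.p6. A window was available for 11 of the 16 melanosome genes and 6 of these held CATGTG (54.5%), namely Tyrp1, Dct, Tyr, Oca2, Slc24a5 and Trpm1. Of all 27025 genes with a window, 15.9% held it. The 150 bases before the start of the genes encoding tyrosinase and its relative TYRP1 are shown because their transcripts were among the tumour genes described here, with CATGTG in capitals. It began 21 bases before the start in Tyr (chr7:87493513-87493662, minus strand) and 46 bases before it in Tyrp1 (chr4:80834063-80834212, plus strand).
Tyr: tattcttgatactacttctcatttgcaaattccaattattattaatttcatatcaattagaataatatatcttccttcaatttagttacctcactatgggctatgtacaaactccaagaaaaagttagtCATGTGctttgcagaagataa
Tyrp1: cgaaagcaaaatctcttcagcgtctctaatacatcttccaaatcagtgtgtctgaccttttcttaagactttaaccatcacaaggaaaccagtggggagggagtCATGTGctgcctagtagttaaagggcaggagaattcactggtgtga

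Cell division genes were expressed at an even level across the mice. The list of 25 replication and mitosis genes summed to 4392, 4698 and 4198 CPM, and none had a 2-fold range, against 10.2% of all measured genes. Mki67, the usual proliferation marker, was at 412, 350 and 333 CPM, and Top2a, which untangles replicated DNA, was at 405, 402 and 398 CPM. Birc5, which encodes survivin, had the widest range of the list at 113, 163 and 106 CPM. The 20 genes of glycolysis and low-oxygen response summed to 13113, 14906 and 12941 CPM, again with none at a 2-fold range. When centred by exon length, 1 of them had a 2-fold range. Eno1 hardly moved between the mice at 1383, 1392 and 1384 CPM, and Egln3, a hydroxylase induced at low oxygen, ranged most at 5.84, 5.07 and 9.21 CPM.

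Fat transcripts had wider ranges between the mice than melanosome transcripts. Of the 21 adipocyte genes 18 were measured, and 10 of these had a 2-fold range, against 10.2% of all measured genes. For 17 of the 18, PBS 3 was the highest library, against 36.8% of all measured genes, and for 14 PBS 2 was the lowest, against 43.4%. Adiponectin (Adipoq), the hormone that marks mature adipocytes, was at 49.6, 39.5 and 87.6 CPM. Plin1, which coats the lipid droplet, was at 21.3, 14.5 and 55.3 CPM, and Plin4, its relative, at 21.6, 12.2 and 49.8 CPM. PBS 3 was at least 2-fold above both others for 6 of the 18 genes, against 1.5% of all measured genes.

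Not every gene of the list followed this order. Mgll, a lipase that many other cells use too, was even at 1301, 1241 and 1347 CPM within a list sum of 2170, 2055 and 2844 CPM. Fabp4, a fatty acid carrier of adipocytes, macrophages and endothelium, was lowest in PBS 1 at 216, 269 and 335 CPM. Cfd, the adipocyte protease adipsin, was at 171, 173 and 355 CPM, so PBS 3 alone was high. Ucp1, the marker of heat-producing fat, had 2, 4 and 15 counts and was below the limit for a measured gene.

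Genes of lipid synthesis were lowest in PBS 2 for 16 of 17 members, against 43.4% of all measured genes. Scd1, which introduces the double bond into fatty acids, was at 987, 369 and 1374 CPM, and Fasn, the fatty acid synthase, was at 606, 338 and 720 CPM. Dgat2, which closes the synthesis of triglycerides, was at 29.1, 14.1 and 54.0 CPM. Pck1, which supplies glycerol phosphate in fat, had the widest range, at 17.2, 7.10 and 39.2 CPM. In each of these 4 genes the order of the libraries was PBS 2, PBS 1, PBS 3 from low to high. Of the 17 genes 7 had a 2-fold range, against 10.2% of all measured genes. With values centred by exon length PBS 2 was the lowest library for 16 of the 17 lipid synthesis genes and for 16 of the 18 adipocyte genes, against 38.3% of all measured genes on that scale.

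Matrix transcripts of fibroblasts followed a similar order with smaller distances. The 22 genes summed to 4488, 3528 and 5632 CPM, with 18 highest in PBS 3 (36.8% of all measured genes), 17 lowest in PBS 2 (43.4%) and 3 at a 2-fold range (10.2%). Fibrillar collagen was at 220, 172 and 366 CPM for Col1a1 and at 750, 587 and 1125 CPM for Col3a1. Fn1, which encodes fibronectin, was low only in PBS 2, at 795, 327 and 720 CPM. Sparc, a matrix protein that tumour cells can also make, was even at 1051, 1119 and 1204 CPM. These genes are long, with a median exon length of 7042 bases against 4346 for all measured genes, and after centring by length PBS 2 was lowest for 13 of the 22, against 38.3% of all measured genes, and the sums were 4368, 3782 and 5393 CPM.

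Mesothelial transcripts marked the omental lining in all 3 mice. The 14 measured genes of 15 summed to 246, 206 and 317 CPM and 11 were highest in PBS 3, against 36.8% of all measured genes. Msln, which encodes mesothelin, was at 16.1, 14.5 and 19.1 CPM, Upk3b at 34.4, 28.2 and 49.9 CPM, and Krt19, a keratin of simple epithelia, at 33.8, 32.9 and 48.9 CPM. Centred by exon length the sums were 256, 193 and 327 CPM. Only Lrrn4 (11.0, 6.54 and 19 CPM) and Muc16 (1.43, 0.515 and 2.15 CPM) reached a 2-fold range, 14.3% against 10.2% of all measured genes.

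The summed levels of vessel genes were close in the 3 mice. The 14 blood endothelial genes summed to 467, 485 and 531 CPM. The 10 measured genes of pericytes and smooth muscle summed to 169, 175 and 180 CPM. None of the 24 had a 2-fold range, against 10.2% of all measured genes. The adhesion molecule PECAM-1 (Pecam1) was at 36.9, 43.8 and 46.8 CPM. Acta2, the actin of smooth muscle, was at 36.6, 45.2 and 40.9 CPM. Among lymphatic genes Lyve1, a hyaluronan receptor that some macrophages carry too, differed at 25.3, 15.2 and 53.0 CPM, whereas Prox1, the factor that sets lymphatic identity, stayed at 6.50, 4.84 and 5.22 CPM.

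Cxcl13, the B cell chemokine of milky spots, was at 233, 218 and 245 CPM in the 3 mice (232 ± 13.5, SD, n = 3). As scaled by TMM no library was far from the others, and its values were not centred by exon length. The lymphoid stroma list as a whole summed to 415, 433 and 462 CPM, but only 8 of its 13 genes were measured. Cxcl13 with Ltbr, the lymphotoxin receptor (138, 153 and 136 CPM), made up most of the sum. Centred by exon length the list summed to 442, 384 and 492 CPM, so PBS 2 and not PBS 1 was then lowest. Ltb, a lymphotoxin subunit of lymphocytes, was at 8.15, 13.1 and 16.6 CPM, and Ccr7, the receptor that guides cells to lymphoid tissue, at 3.79, 7.85 and 7.92 CPM.

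Genes shared by most leukocytes were lowest in PBS 1 and highest in PBS 3 in their sum, while lists of single leukocyte types had various orders, as given below. The 10 pan-leukocyte genes summed to 711, 917 and 1181 CPM. Arhgdib, which was highest in PBS 2, made up 292, 387 and 330 CPM of these sums. Ptprc, the common leukocyte antigen CD45, was at 57.8, 69.5 and 134 CPM, and Coro1a, an actin regulator of leukocytes, was at 47.6, 83.1 and 118 CPM. For Ptprc the first 2 libraries lay close together and PBS 3 was high, while Cd52 had only PBS 1 low, at 19.96, 48.5 and 50.9 CPM.

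As scaled by TMM, T cell genes showed this order without exception. All 21 genes of the list were measured. Every one was lowest in PBS 1, intermediate in PBS 2 and highest in PBS 3. That order was found in 12% of all measured genes and in 36% of those with a 2-fold range. The sums were 114, 188 and 258 CPM, and 14 of the 21 had a 2-fold range, against 10.2% of all measured genes. Centred by exon length all 21 were highest in PBS 3, while 20 were lowest in PBS 1 and 1 in PBS 2. Cd3e, a chain of the T cell receptor complex, was at 3.91, 4.36 and 10.5 CPM. Its values in PBS 1 and PBS 2 lay close together, on 137 and 110 counts. Trac, the constant region of the receptor's alpha chain, was at 6.10, 12.7 and 19 CPM. Cd8a, which marks cytotoxic T cells and some dendritic cells, was at 3.19, 9.47 and 14.9 CPM, with PBS 1 at least 2-fold below both others. Tcf7 and Il7r, genes of naive and memory T cells, differed less, at 24.1, 26.5 and 38.6 CPM and at 12.2, 14.8 and 19 CPM.

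Cytotoxic and NK cell genes moved in the same direction. Of 13 measured genes 11 had the order PBS 1, PBS 2, PBS 3 from low to high. That order held for 12% of all measured genes and for 36% of those with a 2-fold range. A 2-fold range was found for 11 (10.2%), and the sums were 66.5, 125 and 161 CPM. Gzmb, a granzyme that kills target cells, was at 1.91, 5.11 and 10.1 CPM, and Nkg7, a protein of cytotoxic granules, at 4.11, 9.12 and 14.9 CPM. Ifng, which encodes interferon gamma, was near the counting limit, with 3, 28 and 65 counts.

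B cell genes had smaller distances than T cell genes in the same direction. The 16 genes summed to 433, 474 and 500 CPM and none had a 2-fold range, against 10.2% of all measured genes. Their median log2 range of 0.48 was above the 0.38 of all measured genes. Of the 16, 13 were lowest in PBS 1 (24.9% of all measured genes) and 11 highest in PBS 3 (36.8%). Centred by exon length the sums were 459, 420 and 529 CPM, so PBS 2 was then lowest. Ms4a1, which encodes the surface protein CD20, was at 10.6, 11.2 and 11.1 CPM. Ighm, the heavy chain of IgM, was at 337, 359 and 373 CPM. Divided by the pan-leukocyte sum, a ratio chosen after the values were seen, the B cell list gave 0.609, 0.517 and 0.423 and the T cell list 0.161, 0.205 and 0.219. These ratios lean on single genes, Ighm in the B cell sum and Arhgdib in the pan-leukocyte sum. They were not computed without these genes, so they do not settle the balance between B and T cells.

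Which library was lowest differed among macrophage genes and depended on the scale. The 18 macrophage and monocyte genes summed to 2873, 2797 and 3851 CPM. Of these 15 were highest in PBS 3 (36.8% of all measured genes) and 9 had a 2-fold range (10.2%). Adgre1, which encodes the macrophage marker F4/80, was at 69.9, 27.8 and 94.0 CPM, and Csf1r, the receptor macrophages need to survive, at 62.2, 36.3 and 117 CPM, so both were lowest in PBS 2. Complement gene C1qa was at 105, 131 and 214 CPM, and Ly6c2, a marker of inflammatory monocytes, at 8.24, 23.1 and 34.7 CPM, both lowest in PBS 1. As scaled by TMM 10 of the 18 were lowest in PBS 1 (24.9% of all measured genes). The 8 lowest in PBS 2 were near the share of all measured genes (43.4%). Centred by exon length 5 of the 18 were lowest in PBS 1 (24.4% of all measured genes on that scale) and 13 in PBS 2 (38.3%). The sums were then 3037, 2503 and 4092 CPM, and Adgre1 was at 71.9, 26.7 and 95.6 CPM. Apoe, which tumour cells can share, stayed at 1378, 1425 and 1488 CPM.

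Large peritoneal macrophages are the resident macrophages of the peritoneal fluid. Of the 14 genes of their list 13 were lowest in PBS 2, against 43.4% of all measured genes. The sums were 1142, 519 and 984 CPM, and Saa3, given below, made up much of them. PBS 2 was at least 2-fold below both others for 9 of the 14, against 1.59% of all measured genes. Alox15, a lipoxygenase, was at 122, 27.9 and 94.4 CPM, and Prg4, the lubricating protein lubricin, was at 81.4, 18.7 and 70.0 CPM. The coagulation factor gene F5 was at 10.4, 2.06 and 7.97 CPM, and Saa3, an acute-phase protein, at 629, 236 and 511 CPM. In all 4, PBS 1 was highest and PBS 3 lay near it.

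The distance of PBS 2 was uneven within the list. Timd4, a receptor for dying cells, was low in PBS 2 at 28.5, 9.04 and 40.5 CPM, while the defining transcription factor gene Gata6 was at 9.49, 7.93 and 11.6 CPM and Icam2 at 37.1, 29.4 and 36.2 CPM. Cd9, which many cells express, was highest in PBS 2 at 133, 148 and 122 CPM. Mesothelium also expresses several of these genes, and its own list was lowest in PBS 2 by a smaller distance, as given above. After centring by exon length 13 of the 14 genes were lowest in PBS 2 (38.3% of all measured genes), with sums of 1193, 481 and 1017 CPM.

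Dendritic cell genes were lowest in PBS 1 for 10 of 12 measured members, against 24.9% of all measured genes. Their sum of 428, 858 and 648 CPM was mostly Bst2 (258, 664 and 440 CPM), which interferon also induces. Fscn1 added 137, 147 and 143 CPM, so the other members made up little of the sum. Centred by exon length this sum was 456, 713 and 718 CPM, so PBS 2 was no longer the highest library. Itgax, which encodes CD11c, was at 3.25, 6.14 and 15.2 CPM, and Batf3, a factor of cross-presenting dendritic cells, at 1.85, 5.15 and 4.13 CPM. Neutrophil genes were sparse: 8 of 14 were measured, with sums of 37.9, 19.2 and 47.7 CPM, or 40.3, 17.3 and 50.4 CPM centred by exon length. S100a8 was at 4.42, 1.59 and 3.42 CPM, and the granule protein gene Ngp had 109, 3 and 72 counts. Ly6g, the marker used to define mouse neutrophils, had 2, 0 and 4 counts, and a count of 0 in PBS 2 allows up to 0.119 CPM (counting error only). Of 12 mast cell and eosinophil genes 5 were measured.

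**Figure D3:**
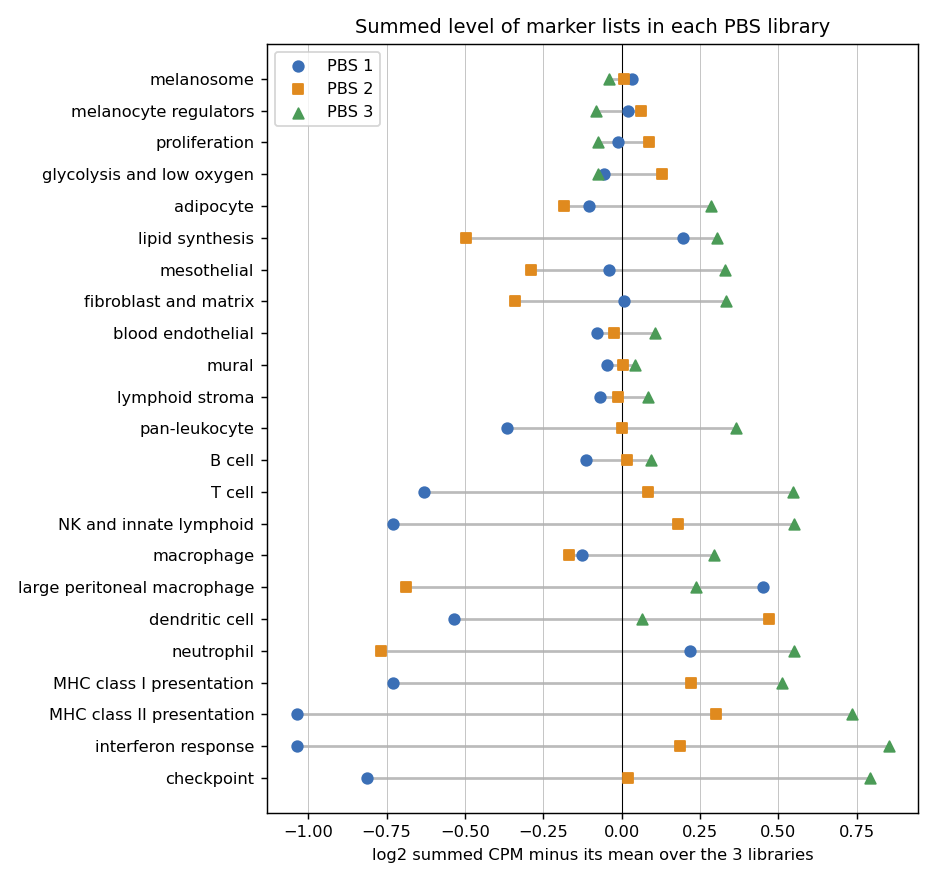
Log2 of the summed CPM of each of 23 marker lists in each PBS library, minus its mean over the 3 libraries (horizontal axis). The pigment, proliferation, vessel and B cell lists lie close to 0, PBS 2 is low for lipid synthesis, matrix and large peritoneal macrophage genes, and the interferon, MHC, checkpoint, T cell and NK cell lists run from PBS 1 to PBS 3.

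Interferon response genes had the widest distance between the mice of the 34 lists, followed by MHC class II and checkpoint genes. The interferon list of 20 genes summed to 883, 2061 and 3274 CPM, a 3.71-fold distance, and 18 had a 2-fold range (10.2% of all measured genes). All 20 were lowest in PBS 1, against 24.9% of all measured genes, and 19 were highest in PBS 3, against 36.8%. Gbp2, a GTPase that interferon gamma induces strongly, was at 49.1, 212 and 496 CPM, and Iigp1, a GTPase that attacks the vacuoles of intracellular parasites, was at 24.5, 140 and 328 CPM. The chemokine genes Cxcl9 and Cxcl10, whose products attract activated T cells, were at 9.69, 86.6 and 206 CPM and at 154, 355 and 386 CPM.

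Ifit3, whose product blocks viral RNA, was at 56.4, 129 and 171 CPM, and its log2 range of 1.60 was narrower than those of Cxcl9 (4.40) and Gbp2 (3.33). Relative to the pan-leukocyte sum, a ratio chosen after the values were seen, the interferon list gave 1.24, 2.25 and 2.77. Arhgdib, highest in PBS 2, made up much of that sum, and no ratio was computed without it. The interferon sum differed 3.71-fold between the libraries and the pan-leukocyte sum 1.66-fold. For Cxcl9, Gbp2 and Iigp1 each library was at least 2-fold from the next.

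MHC class I genes were lowest in PBS 1 without exception, against 24.9% of all measured genes. The 13 genes of this pathway summed to 2529, 4888 and 5978 CPM, and 12 had a 2-fold range (10.2% of all measured genes). H2-K1, a classical class I heavy chain, was at 377, 797 and 1138 CPM, and H2-D1, another, at 512, 966 and 1221 CPM. Psmb9, a subunit of the immunoproteasome, was at 16.7, 75.4 and 89.6 CPM, and Nlrc5, the activator of class I transcription, at 23.7, 49.3 and 113 CPM. The families of H2 and Gbp genes hold near-identical copies among which counting may have split reads, so the value of a single member is uncertain.

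MHC class II genes had a similar distance, with sums of 656, 1654 and 2237 CPM. Of the 11 genes 9 had a 2-fold range (10.2% of all measured genes). Cd74, the invariant chain that guards the class II groove, was at 249, 610 and 910 CPM, and H2-Aa at 95.3, 267 and 320 CPM. Their activator Ciita was at 6.22, 9.91 and 30.9 CPM, so PBS 3 was high for the activator while PBS 1 was low for the presenting molecules. Checkpoint genes were in the order PBS 1, PBS 2, PBS 3 for all 10 measured of 11. That order held for 12% of all measured genes and for 36% of those with a 2-fold range. Of the 10, 8 had a 2-fold range (10.2%). Cd274, which encodes the ligand PD-L1, was at 17.2, 24.9 and 61.8 CPM, and Pdcd1, its receptor PD-1, at 1.28, 5.71 and 6.44 CPM. Cd274 made up a large part of the checkpoint sums of 41.5, 74.1 and 126 CPM. It is also a member of the interferon list, and Ctla4 is also a member of the T cell list.

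Of 20 cytokine and chemokine genes 15 were measured. Spp1, which encodes osteopontin, made up 472, 472 and 431 CPM of sums of 620, 656 and 703 CPM. Tgfb1 was at 53.7, 51.4 and 71.2 CPM. Tnf was near the limit at 0.285, 0.713 and 2.66 CPM, and Ccl8, a monocyte chemokine, was at 9.61, 22.4 and 32.9 CPM. The order PBS 1, PBS 2, PBS 3 held for 9 of the 15, and Spp1 was not among them. It held for 12% of all measured genes and for 36% of those with a 2-fold range.

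Across all measured genes, 1399 of 13728 (10.2%) differed at least 2-fold between the highest and the lowest library and 172 (1.25%) at least 4-fold. PBS 3 was 2-fold above both others for 206 genes (1.5%), PBS 2 was 2-fold below both for 218 (1.59%) and PBS 1 for 144 (1.05%). The opposite directions were rare: 7 genes (0.051%) with PBS 1 above, 32 (0.233%) with PBS 2 above and 5 (0.0364%) with PBS 3 below. For 48 genes (0.35%) all 3 libraries were at least 2-fold apart. The order PBS 1, PBS 2, PBS 3 from low to high held for 36% of the genes with a 2-fold range, and PBS 2, PBS 1, PBS 3 for 37.8%. With only 2 libraries left, 836, 670 and 504 genes had a 2-fold distance without PBS 1, PBS 2 and PBS 3. The common biological coefficient of variation over the 3 mice was 21.5%.

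Among genes with a mean of at least 5 CPM, 22 of the 25 that varied most had the order PBS 1, PBS 2, PBS 3. Of the 25, 4 belong to the interferon list (Cxcl9, Iigp1, Gbp2 and Gbp5). Tgtp1, an immunity-related GTPase, led with 2.54, 29.8 and 59.9 CPM, a log2 range of 4.53 with a counting error of 0.16. Its near-identical neighbour Tgtp2 was at 10.4, 62.9 and 134 CPM, and reads may have been split between them. Cxcl9 came next with a log2 range of 4.40. GTPases made up much of the set, with Gbp10, Gbp4, Gbp2, Gbp5, Gbp6, Iigp1, Igtp and Ifi47 beside the Tgtp pair.

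Other members of the set have different roles in immunity. Ubd, a ubiquitin-like modifier induced by interferon gamma, was at 0.684, 6.70 and 10.9 CPM, and Serpina3g, a protease inhibitor of activated immune cells, at 2.17, 12.6 and 24.7 CPM. Socs1, the feedback inhibitor of interferon signalling, was at 2.22, 6.38 and 14.6 CPM. Acod1, which makes itaconate in activated macrophages, was at 1.77, 4.04 and 14.6 CPM, and Zbp1, a sensor of Z-form nucleic acids, at 20.8, 92.2 and 156 CPM. In Socs1 and Acod1 each library was at least 2-fold from the next. Serpina3f, Slamf8, Batf2, Calhm6 and Fgl2 completed the group with that order. Olfr56, at 1.63, 10.0 and 23.3 CPM, bears an olfactory receptor name but shares exon sequence on the same strand with Ifi47 in the older GENCODE M21 annotation.

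The exceptions were Ighg3, Ighg2c and Zbtb16. Zbtb16, which encodes the factor PLZF of innate-like lymphocytes and responds to glucocorticoids in many cells, was at 8.72, 0.991 and 13.98 CPM and so was low in PBS 2 alone, as it was when centred by exon length (8.62, 1.05 and 13.6 CPM). Both antibody genes are described below. Passed over by the naming rule, but at the same size of range, were 6 entries with provisional or no names or of variable segments, and 4 of them also had the order PBS 1, PBS 2, PBS 3.

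**Figure D4:**
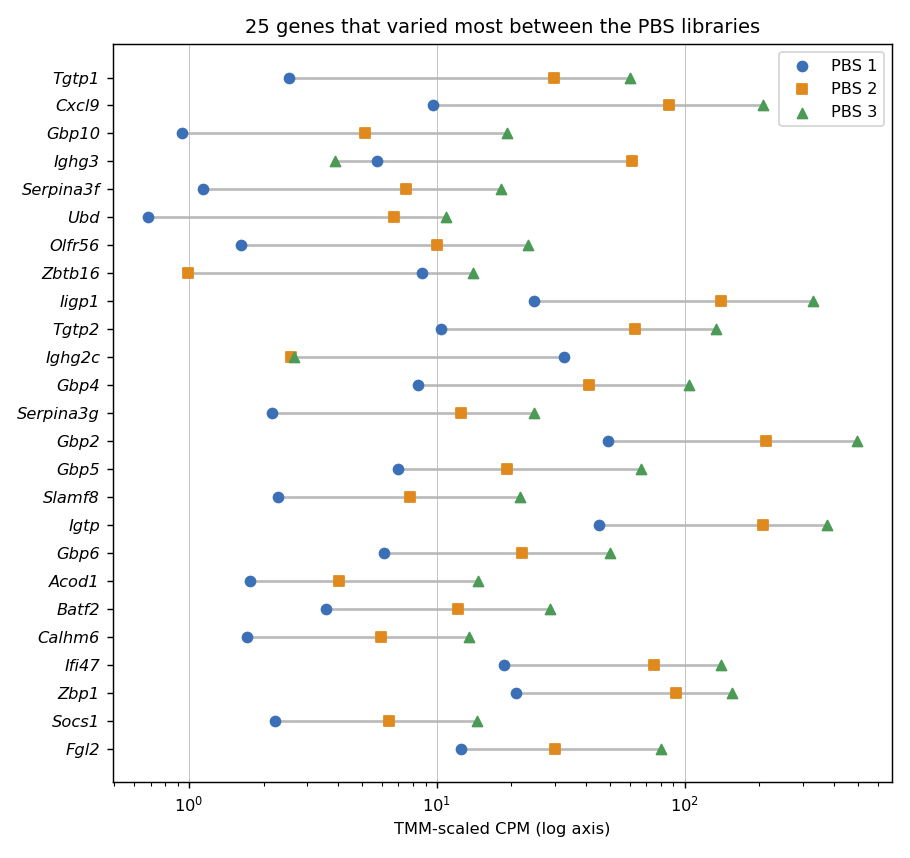
TMM-scaled CPM (horizontal axis, log) of the 25 genes with the largest log2 range among genes with a mean of at least 5 CPM, in each PBS library. In 22 of the 25, PBS 1 is lowest and PBS 3 highest; Ighg3, Ighg2c and Zbtb16 depart from this.

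Since these genes moved together, their starts were searched for the letters TTCNNNGAA, the palindrome bound by STAT dimers, and GAAANNGAA, the core of the element bound by interferon regulatory factors. The patterns can overlap at GAA. Both were chosen after the values were seen and were searched on both strands of the same windows. A window was available for 16 of the 25 genes, and 12 of the 16 (75%) held at least 1 of these motifs, against 17.9% of all genes with a window. Of the interferon list 12 of 15 held 1, and of the 25 most abundant genes 1 of 17, which was B2m. The 25 variable genes were picked by the same values, include related Gbp and Tgtp genes, and overlap the interferon list. These shares therefore only describe the windows, and control by either kind of factor was not tested. The 150 bases before the start are shown for 3 GTPase genes of the set, with each match in capitals, to set both motifs side by side. Igtp (chr11:58199406-58199555, plus strand) held TTCNNNGAA from 45 bases and GAAANNGAA from 34 bases before the start. Gbp5 (chr3:142496784-142496933, plus strand) held TTCNNNGAA from 52 bases before it within this stretch. Gbp2 (chr3:142620513-142620662, plus strand) held GAAANNGAA, here on the opposite strand, from 58 bases before it.
Igtp: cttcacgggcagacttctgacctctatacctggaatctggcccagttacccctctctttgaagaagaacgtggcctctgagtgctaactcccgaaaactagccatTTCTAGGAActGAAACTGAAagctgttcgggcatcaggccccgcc
Gbp5: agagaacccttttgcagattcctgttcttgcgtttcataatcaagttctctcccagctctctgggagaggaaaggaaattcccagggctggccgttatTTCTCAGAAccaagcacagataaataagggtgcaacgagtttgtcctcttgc
Gbp2: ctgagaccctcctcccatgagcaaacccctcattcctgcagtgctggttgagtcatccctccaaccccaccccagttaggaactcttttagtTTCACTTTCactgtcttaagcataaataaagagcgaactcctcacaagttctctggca

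Antibody classes differed between the mice in a pattern of their own. Counts of the heavy-chain constant regions numbered 14383, 11795 and 19092, and Ighm made up 82.1%, 76.7% and 88.0% of them. Ighg3 took 13.1% in PBS 2 (95% Wilson interval 12.5% to 13.7%) against 1.40% in PBS 1 and 0.917% in PBS 3. Ighg2c took 7.95% in PBS 1 (7.52% to 8.41%) against 0.551% in PBS 2 and 0.623% in PBS 3. Each of these classes was thus high in a single mouse, and a different one. Igkc, the constant region of most light chains, was at 174, 265 and 174 CPM, and Jchain, which joins IgM and IgA into polymers, at 39.7, 56.6 and 38.6 CPM, both highest in PBS 2. Centred by exon length Igkc was at 190.1, 209.7 and 201.3 CPM and Jchain at 41.6, 52.3 and 40.2 CPM, and the plasma cell list summed to 345, 400.2 and 325 CPM in place of 322, 470 and 293 CPM. Igha, the heavy chain of mucosal IgA, took 3.78%, 6.34% and 5.43%. The intervals cover counting error only, and the constant regions of IgG classes are similar enough in sequence that reads may be shared.

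**Figure D5:**
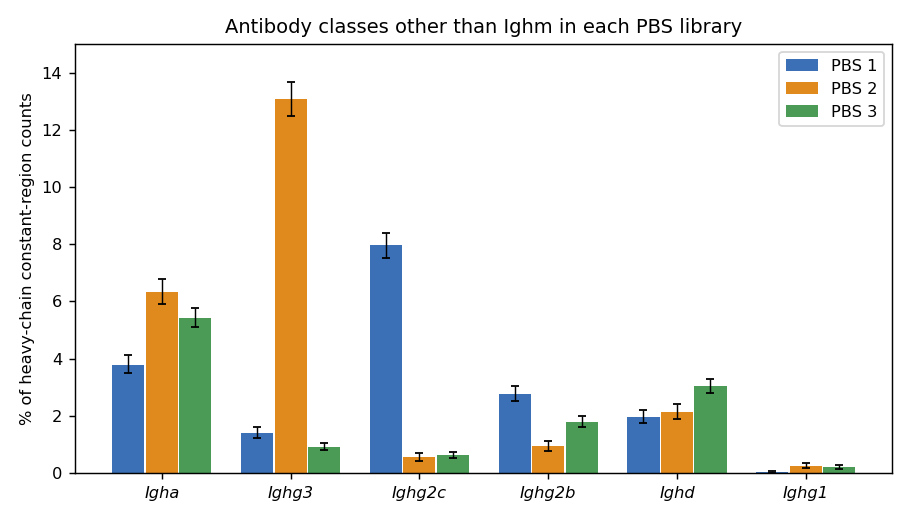
Share of heavy-chain constant-region counts (vertical axis, percent) of 6 classes other than Ighm in each PBS library, with 95% Wilson intervals for counting error. Ighg3 reaches 13.1% in PBS 2 alone and Ighg2c 7.95% in PBS 1 alone.

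Transcripts of neighbouring organs were scarce. Of 17 digestive enzyme genes of the pancreas 2 were measured, with sums of 22.0, 22.4 and 16.1 CPM that were mostly Cela1 (15.8, 18.6 and 14.1 CPM), which is also expressed outside the pancreas. Liver and gut genes summed to 10.5, 9.08 and 8.46 CPM, and striated muscle genes to 8.15, 6.78 and 7.30 CPM. Red cell and platelet genes summed to 34.8, 22.8 and 27.6 CPM, mostly the platelet chemokine gene Pf4. Xist, the RNA that silences an X chromosome in female cells, was at 68.7, 37.7 and 92.6 CPM, and 4 Y-linked genes had no counts in the 3 libraries except 2 counts of Kdm5d in PBS 1.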

How the data were processed

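Per the labels' protocols, poly(A) RNA was made into directional libraries and read as pairs of 51 bases per end. The submitters' processing notes name the mm39 build, STAR 2.7.9, limma and featureCounts. The annotation release was not given in the sources used here, nor was the strand setting. Values are whole-number counts per gene, used as deposited, and the authors' second table of log2 CPM for 18833 genes served as an alternative only. Library totals of 25993996 to 44626843 counts set the counting precision, which is finer than the distances between mice for nearly all genes named.

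The 3 PBS libraries were scaled alone with TMM (edgeR 4.0.16 in R 4.3.3), and log2 CPM used a prior count of 2. A gene is called measured at a mean of at least 1 CPM. A library stands apart where it lies at least 2-fold above or below both others, and a log2 range is the highest minus the lowest library. TPM used exon lengths from the GENCODE M21 annotation (GRCm38), which gave a symbol to 52083 of the 55359 identifiers. That build differs from mm39, so only names, lengths and the sharing of exons between genes were taken from it. Promoter windows and their coordinates are RefSeq's on GRCm38.p6. The scripts were tested on simulated counts.

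The 34 marker lists (505 entries, 504 matched), the tests and the alternatives were chosen with earlier results of these data known. The report names the 25 genes of highest mean CPM, the 15 highest per length, the 25 of largest log2 range at a mean of at least 5 CPM, and a preset group. It also names members of each list, drawn from the 5 of highest level and the 2 of largest range. Provisional, pseudogene and segment names were passed over (1 abundant, 6 variable). Chosen after their values were seen were Gata6, Ucp1, Ly6g, Kdm5d, the melanosome genes named only for their promoters, the mitochondrial genes, segments and the entry without a symbol in the closing part, the antibody shares, the motifs TTCNNNGAA and GAAANNGAA (the latter shortened by 1 base after a longer form had been searched), the ratios of list sums and the centring by exon length. Ovalbumin was not analysed here. Some genes that the naming rule covers are left out of the named results and stay in the sums and counts.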

Additional observations from a re-analysis of the deposited data

How the results depend on the processing

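The limits are the 3 mice, the lack of a test and the lack of repeat libraries. No paired analysis was possible because a single group was described. Of the 25 most abundant genes all stayed under library totals, DESeq2 size factors and the deposited log2 CPM, 23 to 24 stayed with a replicate left out, and 14 stayed when ranked per kilobase of exon. The number of genes at a 2-fold range (1399) was 1468 with library totals, 1364 with DESeq2 size factors, 1445 with a prior count of 0.5 and 1763 with edgeR's filterByExpr. It ranged from 504 (without PBS 3) to 836 (without PBS 1) with a replicate left out, since only 2 libraries then remain, and was 670 without PBS 2. A mean of at least 5 CPM left 658, and any count gave 7999, since the filter sets how many genes enter. Genes with 1 library 2-fold above both others at a mean of at least 5 CPM were 1 (PBS 1), 7 (PBS 2) and 104 (PBS 3), and below both 84, 66 and 0. With any count they were 850, 745 and 1016 above, and 504, 1441 and 276 below. With filterByExpr PBS 1 was above for 14 genes, PBS 2 above for 68 and PBS 3 below for 12. Centring by exon length, chosen after seeing the data, left PBS 2 above for 8 genes and PBS 3 below for 1, with 1307 genes at a 2-fold range and 242 with PBS 2 below. Of the 34 list sums 17 differed at least 1.5-fold between libraries, a limit also chosen after seeing the data, and 8 to 12 did with a replicate left out (8 without PBS 1, 9 without PBS 2). Of the 25 most variable genes 19 stayed under the coefficient of variation or a mean of at least 1 CPM. Under edgeR's dispersion or centring by exon length 24 stayed, and 25 did under library totals or DESeq2 size factors. The highest and the lowest library were both kept in 33 of 34 lists with DESeq2 size factors, in 28 with library totals and in 25 when centred by exon length. Centring changed the lymphatic, lymphoid stroma, B cell, dendritic, cytokine, acinar, liver and gut, immediate early and mitochondrial lists, and for the dendritic and immediate early lists the highest library was then PBS 3 and not PBS 2.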

Other observations

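Variable segments of antibody genes were led by the same members in all 3 mice. Igkv14-126 held 34.8%, 52.9% and 37.1% of the counts of kappa variable segments in PBS 1, PBS 2 and PBS 3, of 3825, 2758 and 4895 counts. Ighv11-2 held 29.2%, 40.9% and 32.9% of the counts of heavy-chain variable segments, of 2068, 1126 and 2780. As background, this pair of segments is a known receptor of B-1a cells of the peritoneal cavity that bind phosphatidylcholine. Segments of a family are similar in sequence, so reads may be shared between them. Igkv5-39 differed in the other direction, with 914 counts in PBS 1, 1 in PBS 2 and 617 in PBS 3.

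The entry ENSMUSG00000119584, which has no symbol in the annotation used, took 3419, 647 and 6198 CPM, or 0.349%, 0.0628% and 0.626% of the counts, and was the most abundant entry passed over. Of the 13 protein-coding genes of the mitochondrial genome 7 were measured. The other 6, mt-Nd3, mt-Nd4l, mt-Co2, mt-Co3, mt-Atp6 and mt-Atp8, had almost no counts in any library, so the mitochondrial share of 2.26% to 3.09% is that of 7 genes and the remaining entries of that genome in the count table. The causes of both were not tested.

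Immediate early and heat shock genes, which respond within minutes to handling of tissue as well as to signals in it, summed to 182, 269 and 256 CPM. All 13 measured of 14 were lowest in PBS 1 (24.9% of all measured genes), and 4 had a 2-fold range (10.2%). Centred by exon length 11 were lowest in PBS 1 and the sums were 192, 244 and 267 CPM, highest in PBS 3. Jun was at 24.1, 24.9 and 41.2 CPM, highest in PBS 3, and Jund at 34.8, 62.7 and 44.8 CPM, highest in PBS 2, or 37.2, 54.5 and 47.9 CPM when centred. Their part in the other differences was not tested.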
